A study of Mus musculus with 8 samples.

Results

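Type I interferon stimulated genes were followed as a set of 40 genes, taken from a list of symbols and matched to mouse Ensembl gene identifiers. All 40 were found among the 52636 genes of the count table. Of these, 26 had at least 100 counts over the 8 columns of the table and were compared between groups. The other 14 had 5 to 98 counts and are described apart. The nearest on either side of the limit were Dhx58, with 142 counts, and Oasl2, with 98.

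Spleens and lymph nodes were taken from mice 35 to 55 days old that had no sign of disease, and their immune cells were cultured for 4 days under conditions for TH1 and TH17 cells, with 20 ng/ml mouse IL23, 4 ng/ml human TGF-β, 20 ng/ml mouse IL6, 3 ng/ml IL12 and 1 µg/ml antibody to CD3, in medium with 10% serum. No interferon is named among the additions, and all groups had the same treatment. The 4 groups were TCR1640 males, TCR1640 females, SJL/J males and SJL/J females, with 2 columns each. TCR1640 is a T cell receptor transgenic strain on the SJL/J background that develops autoimmune inflammation of the central nervous system without immunization, and SJL/J is its wild-type strain.

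The labels do not say that the 2 columns of a group came from separate mice. Over all genes, the columns of a group differed by a chi-square per degree of freedom of 1.05 to 1.08, against 3.12 to 17.05 between groups, so they differed by little more than sampling noise. They were summed and counted as 1 sample, and no comparison of 2 groups has a replicate check or a p-value. Summed totals were 10005975 counts in TCR1640 males, 7937262 in TCR1640 females, 7678860 in SJL/J males and 8378659 in SJL/J females. Male and female labels matched the sex-linked genes in every column. A transgenic receptor puts most receptor transcripts on 1 set of segments, and here such a set stood under the other strain label. A single joining segment, Traj43, held 2.91% and 5.04% of all Traj counts in the males and females labelled TCR1640, but 79.2% and 75.6% in those labelled SJL/J. No other source used here settles the names. The strains are therefore given below as libraries labelled TCR1640 or SJL/J, and every direction drawn between them depends on those labels.

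Type I interferons are secreted by cells that sense viral or misplaced nucleic acid, and they bind the receptor made of IFNAR1 and IFNAR2. The kinases JAK1 and TYK2 then activate a complex that holds STAT2 and IRF9 and binds the interferon stimulated response element of target genes. The targets include antiviral effectors, nucleic acid sensors and feedback regulators. In T cells the same response is known to change proliferation, survival and the choice of helper fate, and many of these targets also answer to interferon gamma.

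A plain form of the response element is 2 copies of GAAA with 2 bases between them. Promoter windows of 300 bases, from 250 before to 50 after a transcription start, were taken from RefSeq on GRCm38.p6, and 30 of the 40 genes matched one by symbol. The motif stood on either strand in 15 of these 30 genes (50%), against 1079 of 27025 genes of the whole table of windows (3.99%). The STAT dimer motif, TTC and GAA with 3 bases between them and its own reverse complement, stood in 6 of the 30 (20%), against 9.55% of all genes. Of 20 genes with both a window and at least 100 counts, the first motif was in 4 of the 7 that were higher in libraries labelled TCR1640 in either sex, namely Ddx58, Trim30a, Slfn5 and Slfn8. It was in 5 of the 13 that were not, namely Oas3, Ifih1, Eif2ak2, Bst2 and Phf11b. A match of letters is a description and no measured binding.

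Windows are printed for the 4 genes with the motif that were higher under the TCR1640 label in both sexes, for Ifih1, which was lower in males, and for Dtx3l, which had a window without the motif. Capitals mark the GAAA pair with its 2 spacer bases, or its reverse complement with 2 copies of TTTC, and each window runs 5′ to 3′ on the gene's own strand.
Slfn8, chr11:83020761-83021060, minus strand: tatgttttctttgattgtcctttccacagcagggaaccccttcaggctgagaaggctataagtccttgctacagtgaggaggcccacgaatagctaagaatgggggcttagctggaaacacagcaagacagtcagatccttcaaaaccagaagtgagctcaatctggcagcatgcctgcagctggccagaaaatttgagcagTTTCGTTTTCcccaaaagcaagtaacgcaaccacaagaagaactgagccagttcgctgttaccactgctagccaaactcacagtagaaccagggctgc
Trim30a, chr7:104465144-104465443, minus strand: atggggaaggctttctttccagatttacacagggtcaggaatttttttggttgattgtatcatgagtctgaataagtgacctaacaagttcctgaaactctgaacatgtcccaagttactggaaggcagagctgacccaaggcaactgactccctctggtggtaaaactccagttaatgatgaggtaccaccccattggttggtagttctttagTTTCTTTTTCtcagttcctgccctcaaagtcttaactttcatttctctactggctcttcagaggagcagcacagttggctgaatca
Ddx58, chr4:40239776-40240075, minus strand: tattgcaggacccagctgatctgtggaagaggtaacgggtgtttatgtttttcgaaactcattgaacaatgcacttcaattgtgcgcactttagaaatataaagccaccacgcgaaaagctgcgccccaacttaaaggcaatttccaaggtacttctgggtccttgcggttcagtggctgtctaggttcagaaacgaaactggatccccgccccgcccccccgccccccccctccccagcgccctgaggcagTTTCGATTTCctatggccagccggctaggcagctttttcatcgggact
Slfn5, chr11:82951852-82952151, plus strand: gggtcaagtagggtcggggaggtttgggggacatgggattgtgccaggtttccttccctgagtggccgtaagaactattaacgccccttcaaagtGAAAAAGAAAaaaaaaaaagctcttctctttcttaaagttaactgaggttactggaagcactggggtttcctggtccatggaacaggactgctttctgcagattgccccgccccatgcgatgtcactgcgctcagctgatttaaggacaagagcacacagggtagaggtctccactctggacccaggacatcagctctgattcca
Ifih1, chr2:62646206-62646505, minus strand: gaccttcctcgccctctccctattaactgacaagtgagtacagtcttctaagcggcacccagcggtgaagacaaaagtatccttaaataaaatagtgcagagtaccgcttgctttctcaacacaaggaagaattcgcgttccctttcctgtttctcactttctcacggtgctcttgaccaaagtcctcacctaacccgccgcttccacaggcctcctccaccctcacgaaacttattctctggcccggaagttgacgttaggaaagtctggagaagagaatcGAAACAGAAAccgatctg
Dtx3l, chr16:35938978-35939277, minus strand: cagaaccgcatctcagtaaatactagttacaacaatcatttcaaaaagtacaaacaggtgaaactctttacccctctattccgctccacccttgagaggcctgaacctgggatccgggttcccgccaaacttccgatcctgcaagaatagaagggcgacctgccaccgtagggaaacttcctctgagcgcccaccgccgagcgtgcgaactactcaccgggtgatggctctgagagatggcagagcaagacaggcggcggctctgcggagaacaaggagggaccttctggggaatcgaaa
In the windows printed, the first capital lay 48 bases before the start in Slfn8, 36 bases before it in Trim30a and 155 bases before it in Slfn5. In Ddx58 it was transcribed base 3, and in Ifih1 base 33, with the start counted as the first. Slfn8 and Trim30a each had another window, from another start. There a motif began 136 bases before the start in Slfn8 and at transcribed base 3 in Trim30a.

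Levels below are CPM, read counts scaled to a common library size, and ratios are log2 ratios of summed counts with an exact 95% interval. The intervals cover counting error only, not differences between mice. A gene is called apart where the ratio is at least 1.5-fold and its interval excludes equality. Between genes, levels were compared per kilobase of exon. On that scale Parp9 was the highest in both groups labelled TCR1640, at 46.8 CPM per kilobase in males and 52.6 in females, and Ifi27l2a came second, at 36.2 and 43.8. In SJL/J males Ifi27l2a was the higher, at 27.9 against 25.8 for Parp9, and in SJL/J females Parp9 was, at 35.6 against 25.1. Isg15, often among the most induced targets of interferon, stood at 2.63, 3.21, 4.40 and 3.68 CPM per kilobase in TCR1640 males, TCR1640 females, SJL/J males and SJL/J females. Parp9 and Dtx3l together held 42.9% of all counts of the 40 genes.

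The first question was whether the genes differed between the strain labels. Of the 26 genes, 7 were higher and 2 lower in males labelled TCR1640 than in males labelled SJL/J, where 11.7% and 13.3% of all 14124 genes compared were. In females 11 were higher and 2 lower, against 9.82% and 10.8% of all genes. The median log2 ratio of the 26 was 0.31 in males and 0.51 in females, against -0.02 and 0.00013 over all genes. Ratios lay above 0 for 20 of the 26 in each sex, and for 48.3% and 50% of all genes in males and females. At a 2-fold threshold, none was higher and 2 were lower in males, and 4 were higher and 1 lower in females, where 4.62%, 4.98%, 3.48% and 4.1% of all genes were. In a bulk sample, fewer cells that express a gene and less RNA per cell cannot be told apart.

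**Figure D1:**
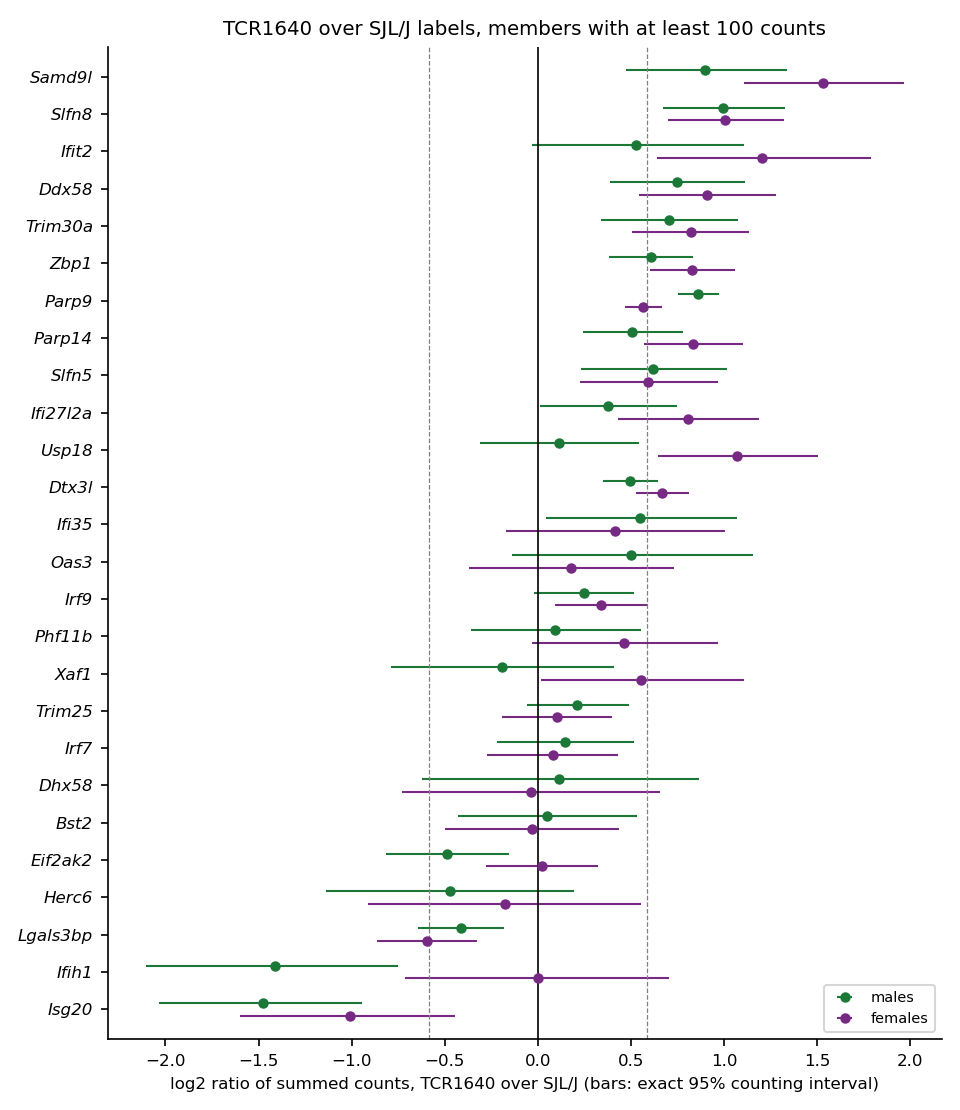
Log2 ratios of libraries labelled TCR1640 over libraries labelled SJL/J for the 26 genes with at least 100 counts, in males and in females, with exact 95% counting intervals and dashed lines at 1.5-fold in either direction. Ratios lay above 0 for 20 of the 26 genes in each sex, and Isg20 was the lowest in both.

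Both sexes had 6 of these genes higher under the TCR1640 label: the sensors Ddx58 and Zbp1 and the effectors Samd9l, Trim30a, Slfn5 and Slfn8. The share of all genes higher in both sexes was not computed. Over all genes the strain ratios of males and females also went together (Pearson r of 0.78). Slfn8 belongs to the Schlafen family, which is known for roles in lymphocyte quiescence and virus restriction, and lies at chr11:83002158-83020810 on GRCm38. It had 27.2 and 28.7 CPM in the columns of males labelled TCR1640, against 15.1 and 13.1 CPM in males labelled SJL/J. In females it had 29.7 and 35.2 CPM under the TCR1640 label, against 17.8 and 14.7 CPM under the SJL/J label. No column labelled SJL/J reached the lowest column labelled TCR1640. Columns of a group count as 1 sample, so here and below such a gap is no replicate check. The log2 ratio was 0.99 in males (0.67 to 1.32) and 1.01 in females (0.70 to 1.32).

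Samd9l, a restriction factor that holds back protein synthesis, had the highest ratio of the 26 in females. Its columns stood at 24.8 and 19.97 CPM in females labelled TCR1640, against 7.91 and 7.56 CPM in females labelled SJL/J. In males they stood at 12.2 and 18.6 CPM under the TCR1640 label, against 9.39 and 7.28 CPM under the SJL/J label. The columns did not overlap in either sex, but those of males labelled TCR1640 were themselves more than 1.5-fold apart. The log2 ratio was 1.53 in females (1.11 to 1.97) and 0.90 in males (0.47 to 1.34). Without column 2 of the males labelled TCR1640 it was 0.57 in males (0.04 to 1.10), which is below the threshold.

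Trim30a, a mouse TRIM protein that restrains signalling to NF-kB, had 21.1 and 18.1 CPM in males labelled TCR1640, against 11.5 and 12.6 CPM in males labelled SJL/J. Females had 30.5 and 27.9 CPM under the TCR1640 label, against 14.6 and 18.4 CPM under the SJL/J label. The ratio was 0.70 in males (0.34 to 1.07) and 0.82 in females (0.51 to 1.14), and both were past the threshold when any 1 of the 8 columns was left out. Slfn5, a second Schlafen gene, had 15.8 and 17.1 CPM in males labelled TCR1640, against 10.7 and 10.8 CPM in males labelled SJL/J. In females it had 19.6 and 18.7 CPM under the TCR1640 label, against 13.3 and 12.1 CPM under the SJL/J label. Its ratios of 0.62 (0.23 to 1.01) and 0.59 (0.22 to 0.97) lay just past the threshold. They fell short of it in males without TCR1640 male column 2 (0.58), and in females without TCR1640 female column 1 (0.56) or SJL/J female column 2 (0.52). Slfn5 shares 559 bases with the antisense gene Slfn5os, whose summed counts were 1189 and 907 in males and females labelled TCR1640, against 254 and 523 in those labelled SJL/J. The strand setting of the counting is not given, so the reads of both genes may not be separable and the ratio is uncertain. That setting is unknown for genes without such an overlap too, and its effect on their counts was not tested. Of 985 pairs of a coding and a noncoding gene that overlap on opposite strands by at least 100 bases, with at least 200 counts in each, the coding gene had the fewer counts in 746, or 75.7% (72.9% to 78.4%, Clopper-Pearson).

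Among the 5 sensors, Ddx58, which encodes the RNA helicase RIG-I, had 20.5 and 20.2 CPM in males labelled TCR1640, against 12.8 and 11.6 CPM in males labelled SJL/J. In females it had 26.3 and 18.2 CPM under the TCR1640 label, against 12.8 and 10.9 CPM under the SJL/J label. The ratio was 0.74 in males (0.39 to 1.11) and 0.91 in females (0.54 to 1.28). Zbp1, which binds left-handed nucleic acid and can start necroptosis, had 46.7 and 50.9 CPM in males labelled TCR1640, against 34.2 and 30.1 CPM in males labelled SJL/J. In females it had 55.8 and 54.4 CPM under the TCR1640 label, against 30.4 and 31.7 CPM under the SJL/J label. Its ratios were 0.61 (0.38 to 0.83) and 0.83 (0.60 to 1.06). The male ratio dropped below the threshold without TCR1640 male column 2 (0.56) or SJL/J male column 2 (0.53).

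Ifih1, which encodes the RNA helicase MDA5, stood the other way in males. It had 3.05 and 2.72 CPM in males labelled TCR1640, against 9.13 and 6.28 CPM in males labelled SJL/J, a log2 ratio of -1.41 (-2.11 to -0.75). In females the summed levels were 4.46 CPM under the TCR1640 label and 4.47 CPM under the SJL/J label. Its female columns labelled TCR1640, at 6.26 and 2.75 CPM, were the only ones of the 26 genes in that group to be apart from each other. Eif2ak2, the double-stranded RNA kinase PKR, and Dhx58, the helicase LGP2, were not apart between the strain labels in either sex.

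The ADP-ribosylation genes Parp9, Parp14 and Dtx3l held the most counts of any role group. PARP9 and DTX3L form a complex that joins ADP-ribosylation to ubiquitin ligation, and PARP14 adds single ADP-ribose units. Parp9 had 233 and 224 CPM in males labelled TCR1640, against 124 and 127 CPM in males labelled SJL/J, a ratio of 0.86 (0.75 to 0.97). In females it had 267 and 246 CPM under the TCR1640 label, against 166 and 179.9 CPM under the SJL/J label, a ratio of 0.57 (0.47 to 0.66), short of the threshold. Dtx3l had 115 and 101 CPM in males labelled TCR1640, against 75.1 and 77.6 CPM in males labelled SJL/J, a ratio of 0.50 (0.35 to 0.64). In females it had 128 and 126 CPM under the TCR1640 label, against 78.1 and 82.3 CPM under the SJL/J label, a ratio of 0.67 (0.52 to 0.81). Parp9 and Dtx3l lie head to head on opposite strands of chromosome 16 and share 458 exonic bases, so part of their counts may be shared. Parp14 had 31.7 and 33.0 CPM in males labelled TCR1640, against 19.8 and 25.6 CPM in males labelled SJL/J, and 39.1 and 40.9 CPM in females labelled TCR1640, against 22.5 and 22.5 CPM in females labelled SJL/J. Its ratio was 0.51 in males (0.24 to 0.78) and 0.83 in females (0.57 to 1.10).

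**Figure D2:**
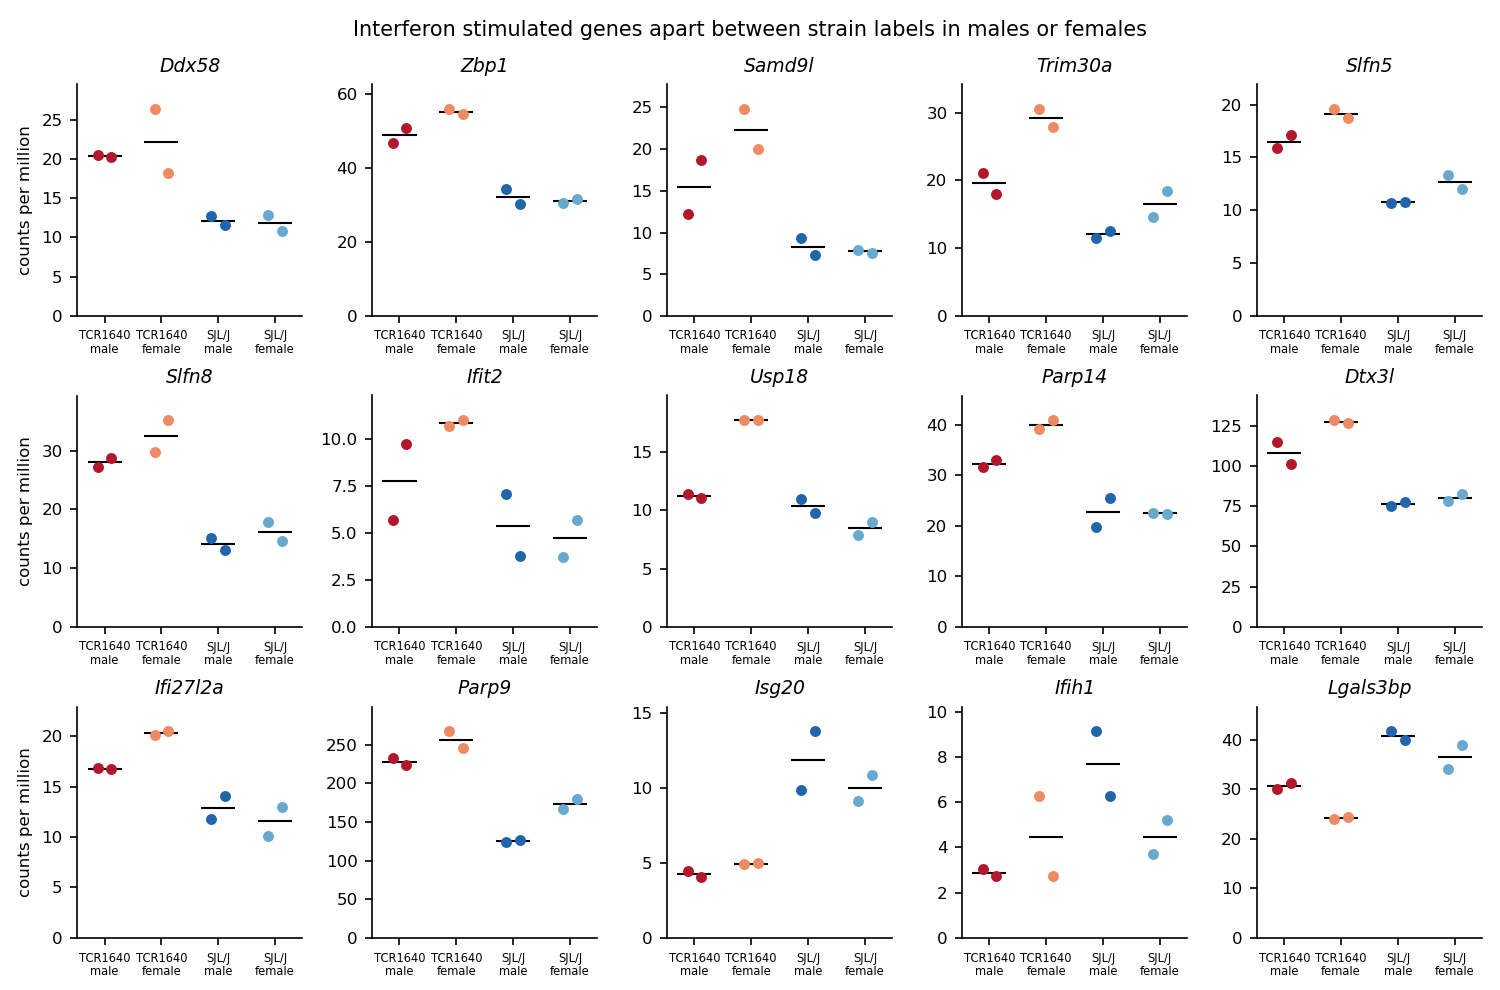
CPM (counts scaled to a common library size) in each of the 8 columns (points) and in each summed group (lines) for the 15 genes that were apart between the strain labels in at least 1 sex. Of the genes higher in at least 1 sex, all but Ifit2 and Trim30a lay higher in every column labelled TCR1640 than in any labelled SJL/J. Isg20 lay lower in every column labelled TCR1640 than in any labelled SJL/J. The share of all genes with such a separation was not computed.

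Isg20, a 3′ to 5′ exonuclease of single-stranded RNA, was lower under the TCR1640 label in both sexes. It had 4.47 and 4.08 CPM in males labelled TCR1640, against 9.91 and 13.8 CPM in males labelled SJL/J, and 4.95 and 4.99 CPM in females labelled TCR1640, against 9.14 and 10.9 CPM in females labelled SJL/J. The columns did not overlap. The log2 ratio was -1.48 in males (-2.04 to -0.94) and -1.01 in females (-1.60 to -0.45). Lgals3bp, a secreted glycoprotein that binds galectin, was lower in females, with 23.99 and 24.5 CPM under the TCR1640 label, against 34.1 and 39.0 CPM under the SJL/J label (-0.59, -0.86 to -0.33). It was at -0.58 without TCR1640 female column 1 and at -0.49 without SJL/J female column 2, below the threshold in each case. In males the ratio of Lgals3bp was -0.41 (-0.64 to -0.18).

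Past the threshold in females, and short of it in males, were Ifit2, Usp18, Parp14, Dtx3l and Ifi27l2a. The difference between the sexes was apart for Usp18 alone of these 5, and the intervals of the other 4 differences held 0. In males Ifit2 passed the threshold without TCR1640 male column 1 (0.87) or SJL/J male column 1 (1.06), Parp14 without SJL/J male column 2 (0.72) and Dtx3l without TCR1640 male column 2 (0.60). Ifit2, an RNA-binding protein that halts translation, had 10.7 and 10.98 CPM in females labelled TCR1640, against 3.71 and 5.67 CPM in females labelled SJL/J (1.20, 0.64 to 1.79). In males it had 5.69 and 9.71 CPM under the TCR1640 label, against 7.04 and 3.77 CPM under the SJL/J label, which overlapped (0.53, -0.03 to 1.10). Usp18 encodes the protease that removes ISG15 from proteins and also damps the interferon receptor. It had 17.7 and 17.7 CPM in females labelled TCR1640, against 7.91 and 8.98 CPM in females labelled SJL/J (1.07, 0.64 to 1.504). In males it had 11.4 and 11.1 CPM under the TCR1640 label, against 11.0 and 9.79 CPM under the SJL/J label (0.11, -0.31 to 0.54). Usp18 shares 124 bases with Gm44148 on the other strand, a noncoding gene of like count, with 111 and 160 counts under the TCR1640 label in males and females, against 83 and 118 under the SJL/J label, and its values are uncertain. Ifi27l2a, a small mitochondrial membrane protein, had 20.1 and 20.5 CPM in females labelled TCR1640, against 10.1 and 13.0 CPM in females labelled SJL/J (0.81, 0.43 to 1.19). Its male ratio was 0.38.

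The transcription factors that carry the response were not apart. Irf9, the DNA-binding subunit that joins STAT2, had 29.9 and 28.2 CPM in males labelled TCR1640, against 25.6 and 23.4 CPM in males labelled SJL/J, and 35.5 and 39.4 CPM in females labelled TCR1640, against 30.9 and 28.4 CPM in females labelled SJL/J. Its ratios were 0.25 and 0.34. Irf7, which amplifies interferon production, had 16.5 and 14.2 CPM in males labelled TCR1640, against 13.3 and 14.3 CPM in males labelled SJL/J, and 15.9 and 19.2 CPM in females labelled TCR1640, against 16.8 and 16.6 CPM in females labelled SJL/J. Its ratios were 0.15 and 0.08. The ISG15 ligases Herc6 and Trim25, the surface tether Bst2, and Ifi35, Phf11b and Dhx58 were also apart in none of the 4 comparisons of 2 groups. Herc6 shares 1269 exonic bases with another gene of its strand, and reads there may not have been assigned to it. Ifi35 (290 bases, with Gm11626), Dhx58 (141, with Dhx58os), Eif2ak2 (174, with Gm26637) and Irf7 (45, with Phrf1) overlap a gene on the other strand and are likewise uncertain. The strain ratios of these partners in males and females were 0.52 and 0.59 for Gm11626, 0.45 and 0.67 for Dhx58os, -0.0028 and -0.82 for Gm26637, and 0.13 and -0.25 for Phrf1. Over the 18 of the 26 genes with no such overlap, the median ratio was 0.31 in males and 0.51 in females. These 18 were counted under the same unknown strand setting.

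An additive model of strain and sex was then fitted with edgeR on the 4 summed samples over all 14124 genes. It has 1 residual degree of freedom, and its residual is the departure from additivity, not the spread between mice. Higher under the TCR1640 label at a Benjamini-Hochberg adjusted p below 0.05 were 12 of the 26 genes, and 2 were lower, where 14% and 14.9% of all genes were. The edgeR estimate was 1.22 for Samd9l (SE 0.20, adjusted p = 2.49e-07), 1.00 for Slfn8 (SE 0.17, adjusted p = 2.87e-07) and 0.71 for Parp9 (SE 0.12, adjusted p = 5.92e-07). Isg20 was lower, at -1.25 (SE 0.25, edgeR adjusted p = 2.8e-05). The 12 were the genes higher in at least 1 sex, and the other lower gene was Lgals3bp, at -0.50. DESeq2 on the same 4 samples called 5 higher, namely Zbp1, Samd9l, Slfn8, Parp9 and Dtx3l, and 0 lower. The calls of Isg20, Lgals3bp and the other 7 thus ended under that tool. The share of all genes that DESeq2 called on these samples was not computed, so the loss cannot be set against it. Ifih1 did not pass, at -0.74 (edgeR adjusted p = 0.0685), nor did Irf9, at 0.29 (0.141), or Irf7, at 0.11 (0.702).

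The second question was whether males and females differed under each strain label. Under the TCR1640 label, none of the 26 genes was higher in males than in females and 3 were lower, where 2.36% and 4.9% of all genes were. Under the SJL/J label, 1 was higher and 1 lower, where 2.49% and 3.72% of all genes were. The 2 columns of a single group gave 1 to 3 such genes by themselves, in either direction. Of all genes 1.85%, 2.06%, 1.94% and 2.04% were in TCR1640 males, TCR1640 females, SJL/J males and SJL/J females. Single columns hold fewer counts than summed groups and so have more counting error. The counts between columns therefore cannot judge the comparison of the sexes. Ratios of males over females lay below 0 for 23 of the 26 under the TCR1640 label, with a median of -0.23, against 0.0018 over all genes. Under the SJL/J label 14 lay above 0 and 12 below, with a median of 0.03. Of all genes, 50.2% lay above 0 under each label.

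**Figure D3:**
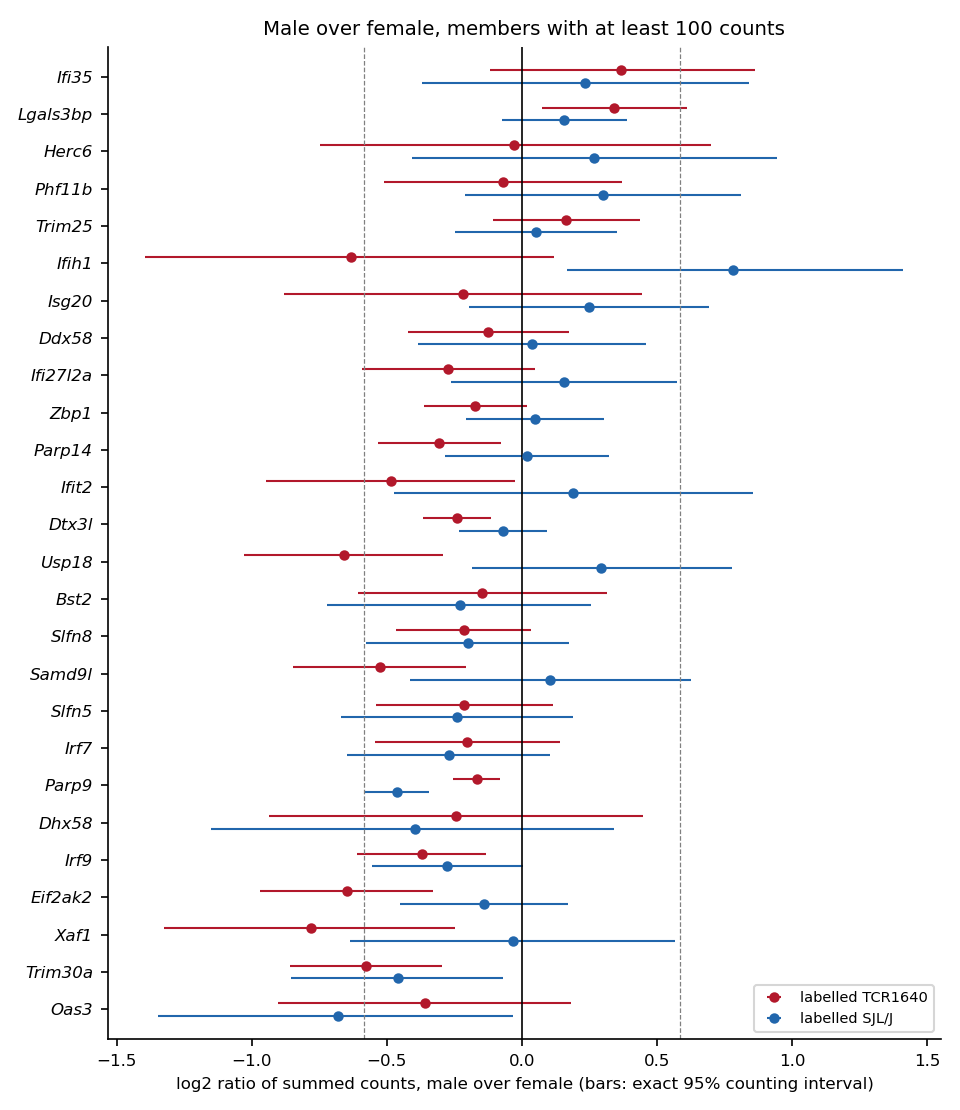
Log2 ratios of males over females for the 26 genes with at least 100 counts, under the TCR1640 and the SJL/J label, with exact 95% counting intervals and dashed lines at 1.5-fold in either direction. Under the TCR1640 label 23 of the 26 genes lay below 0, and under the SJL/J label 12 did. Of all genes, 50.2% lay above 0 under each label.

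Lower in TCR1640 males than in TCR1640 females were Usp18, Eif2ak2 and Xaf1. Usp18 had 11.4 and 11.1 CPM in males and 17.7 and 17.7 CPM in females under the TCR1640 label (-0.66, -1.03 to -0.29). Its noncoding neighbour Gm44148 was also lower in males, at -0.89. Eif2ak2 had 15.7 and 14.0 CPM in males, against 23.2 and 23.2 CPM in females (-0.65, -0.97 to -0.33), and the ratio was -0.56, short of the threshold, without male column 2. Xaf1, which counters the inhibitor of apoptosis XIAP, had 3.46 and 6.99 CPM in males, against 7.04 and 11.0 CPM in females. Its male columns were apart from each other, and its ratio of -0.78 was -0.36 without male column 1 and -0.42 without female column 2, with both intervals holding 0. Under the SJL/J label, Ifih1 was higher in males, with 9.13 and 6.28 CPM in males, against 3.71 and 5.20 CPM in females (0.78, 0.17 to 1.41). It was at 0.49 without male column 1 and at 0.56 without female column 1, with both intervals holding 0. Oas3, a synthetase of the 2-5A messenger that activates RNase L, was lower in SJL/J males, with 3.65 and 4.77 CPM in males, against 6.92 and 6.62 CPM in females (-0.68, -1.35 to -0.03). Without SJL/J male column 1 or either SJL/J female column its interval held 0, at -0.50, -0.65 and -0.72.

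The difference between the 2 sex ratios, TCR1640 minus SJL/J, was past 1.5-fold for 3 of the 26 genes, all downward, where 5.69% of all genes were. It was -0.95 for Usp18 (-1.54 to -0.37), -1.41 for Ifih1 (-2.34 to -0.49) and -0.63 for Samd9l (-1.22 to -0.04). None was upward, against 4.62% of all genes. No gene of the 26 passed the edgeR additive fit for sex, where 0.12% of all genes were higher and 1.04% lower in males. At an unadjusted p below 0.05 that fit had 4 of the 26 lower in males and 0 higher, where 7.12% and 3.09% of all genes were. The lowest p was for Trim30a, at -0.53 (SE 0.17, edgeR adjusted p = 0.128). Fits of the 8 columns, whose spread is that between columns of 1 group, gave 5 lower and 1 higher by edgeR, where 11% and 8.4% of all genes were, and 2 lower and 0 higher by DESeq2, where 4.83% and 2.18% were.

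Over the 26 genes, the strain ratios of males and females had a Pearson r of 0.77 and a Spearman rho of 0.77, and 22 had the same sign. Over all genes with a finite ratio r was 0.78 and rho 0.65. The sex ratios under the 2 labels had an r of 0.06 and a rho of 0.13 over the 26, and 15 had the same sign. These are descriptions across genes, which are not independent replicates.

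The 14 genes with fewer than 100 counts made up 2.41% of the counts of the 40. They include several of the genes most often used as signs of interferon action: Isg15, Rsad2, Cmpk2, Ifi44, Mx1, Mx2, Oas1a, Oas2, Oasl1, Oasl2, Ifit1, Ifit3, Ifit3b and Rtp4. Their sum was 106 and 165 counts in males and females labelled TCR1640, against 147 and 147 in those labelled SJL/J. The log2 ratio of these sums between the strain labels was -0.84 in males (-1.21 to -0.47) and 0.25 in females (-0.08 to 0.58). Between males and females it was -0.999 under the TCR1640 label (-1.37 to -0.64) and 0.08 under the SJL/J label (-0.26 to 0.42).

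Ifit1, which binds RNA that lacks a methylated cap, had 5 and 4 counts in the columns of males labelled TCR1640 and 21 and 21 in females of that label, a log2 ratio of -2.58 (-3.81 to -1.52). It had 6 and 9 counts in males labelled SJL/J and 6 and 8 in females of that label. The females labelled TCR1640 stood above every other column. Between females the strain ratio was 1.66 (0.76 to 2.65). Ifit3 had 9 and 9 counts in males labelled TCR1640 and 9 and 14 in females, against 0 and 2 in males labelled SJL/J and 3 and 1 in females. Its strain ratio was 2.80 in males (0.74 to 5.96) and 2.60 in females (1.05 to 4.59). Ifit3 and Ifit3b are near-identical copies, so reads may be split between them or dropped. Oasl2, a synthetase-like protein, stood the other way, with 3 and 2 counts in males labelled TCR1640 and 9 and 6 in females, against 18 and 22 in males labelled SJL/J and 22 and 16 in females. Its strain ratio was -3.37 in males (-5.06 to -2.02) and -1.26 in females (-2.23 to -0.37). Isg15, the ubiquitin-like modifier itself, had 12 and 8 counts in males labelled TCR1640 and 10 and 9 in females, against 13 and 13 in males labelled SJL/J and 13 and 10 in females. Rsad2, which encodes viperin, had 15 counts in all, Mx1 16 and Ifi44 5, which is too few for a comparison.

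Of the genes upstream of these targets, 16 of 18 type I interferon ligand genes, Ifnb1 among them, had 0 counts in all 8 columns. A count of 0 in a group allows up to 3 counts at this depth. The type III ligand genes Ifnl2 and Ifnl3 were at 0 as well. The other 2 were Ifnk, with 10, 7, 7 and 8 counts in TCR1640 males, TCR1640 females, SJL/J males and SJL/J females, and Ifnz, with 25, 15, 21 and 24. Among receptor and signalling genes, Jak1, a kinase bound to the receptor, had a log2 ratio between the strain labels of 0.99 in males and 0.65 in females. The receptor chain Ifnar1 was at 0.40 in males and 0.73 in females, and the other chain, Ifnar2, at 0.33 and 0.31. Stat2 was at 0.47 and 0.48.

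Of 12 genes of nucleic acid sensing and interferon induction with at least 100 counts, 2 were higher between the strain labels in each sex and none was lower, where 11.7% of all genes were higher in males and 9.82% in females. These were Irf1, at 0.82 and 0.77, which shares 135 bases with Gm17334, and Ikbke, at 0.73 and 0.68, which overlaps Gm28913 and Gm28914, so both are uncertain. Of 9 genes listed as brakes on the response, 3 were higher in each sex and none was lower, against the same shares of all genes. Socs1, an inhibitor of JAK kinases, was at 1.52 and 1.05, its relative Socs3 at 1.87 and 1.56, and Samhd1, which removes deoxynucleotides, at 1.497 and 1.66. None of these 12 and 9 genes was apart between males and females. Of all genes, 2.36% were higher and 4.9% lower in males under the TCR1640 label, and 2.49% and 3.72% under the SJL/J label.

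**Figure D4:**
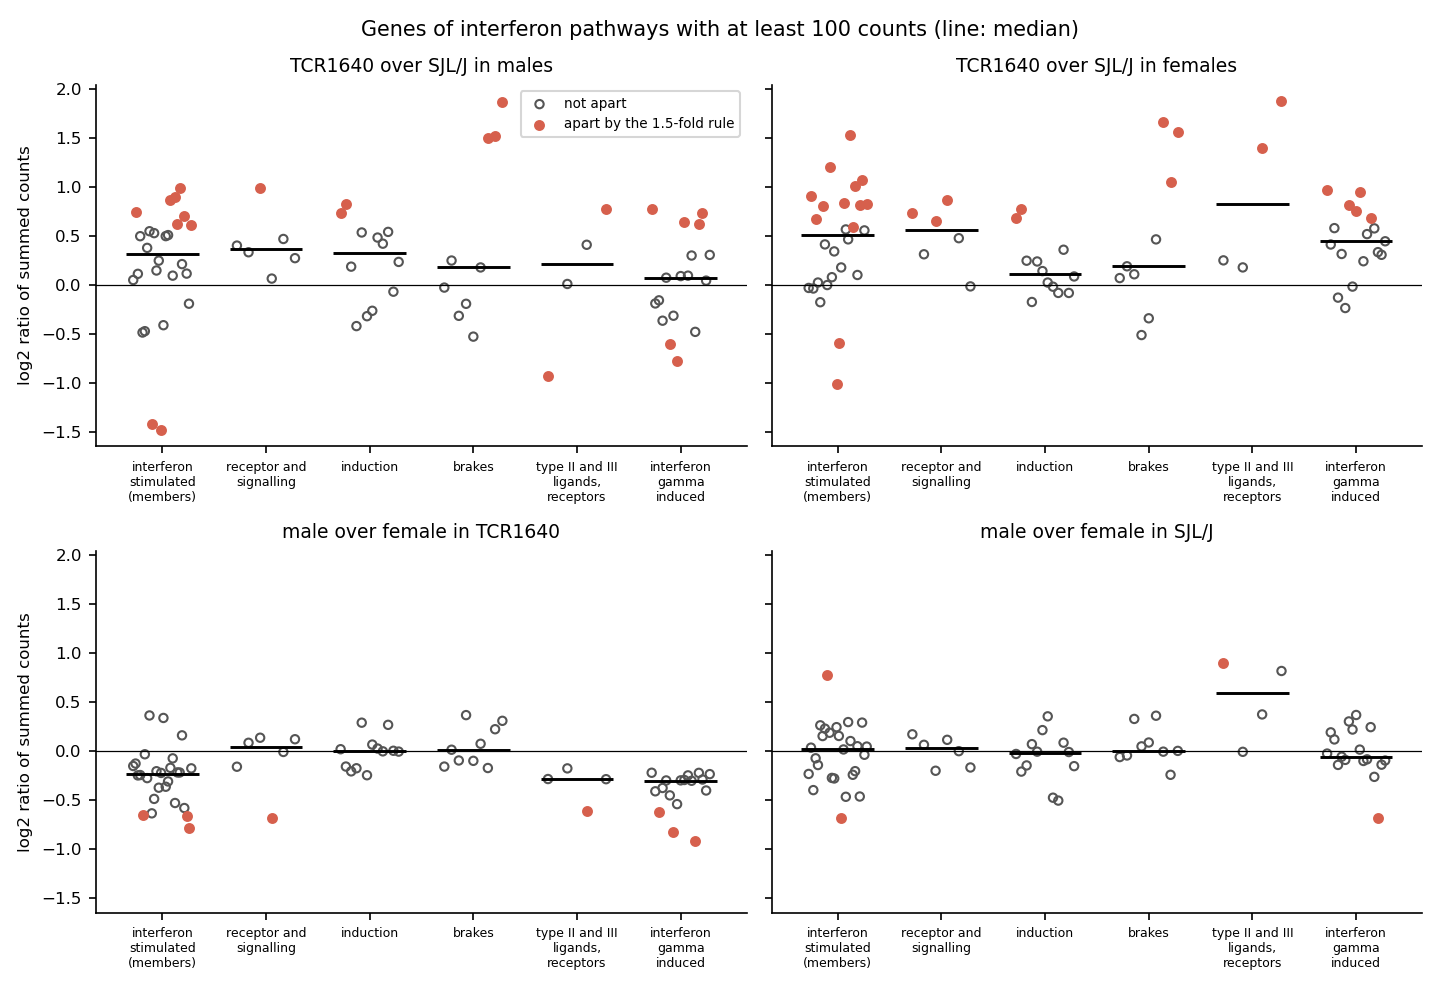
Log2 ratios of the 26 stimulated genes and of 5 lists of pathway genes in the 4 comparisons of 2 groups; each point is a gene with at least 100 counts, filled points are apart and lines are medians. The median of the 26 stimulated genes was 0.31 and 0.51 between the strain labels in males and females, and -0.23 and 0.03 between males and females under the TCR1640 and SJL/J labels.

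Interferon gamma shares many of these targets. Ifng had 51 and 62 counts in males labelled TCR1640 and 61 and 46 in females, against 85 and 82 in males labelled SJL/J and 44 and 51 in females. Its strain ratio was -0.93 in males (-1.29 to -0.58) and 0.25 in females (-0.16 to 0.66). Of 17 genes induced mainly by interferon gamma, 4 were higher and 2 lower between the strain labels in males, with a median of 0.07, where 11.7% and 13.3% of all genes were. In females 5 were higher and none lower, with a median of 0.44, where 9.82% and 10.8% of all genes were. Under the TCR1640 label all 17 ratios of males over females were below 0, at -0.91 to -0.22, where 50.2% of all genes lay above 0. Of the 17, 3 were apart, namely Iigp1, Gbp6 and Gbp2, where 4.9% of all genes were lower. Under the SJL/J label 1 of the 17, Irgm2, was lower in males and none was higher, where 3.72% and 2.49% of all genes were. The receptor chain Ifngr2 was at 1.39 in females (0.77 to 2.04) and 0.41 in males (-0.19 to 1.03) between the strain labels.

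Markers of other cells also moved with the groups. Summed over 9 neutrophil genes, the level was 7.55 and 10.6 CPM in males and females labelled TCR1640, against 149.7 and 59.2 CPM in those labelled SJL/J, with S100a8 and Elane at 0 in a group. Summed over 8 platelet and erythroid genes it was 40.6 and 43.1 CPM under the TCR1640 label, against 296.8 and 173.7 CPM under the SJL/J label. The 8 genes of plasmacytoid dendritic cells, which are known as strong producers of type I interferon, summed to 69.5 and 79.3 CPM under the TCR1640 label, against 45.8 and 51.0 CPM under the SJL/J label. Of these Siglech, Cox6a2 and Klk1, which define the type, were at 0 in at least 1 group. Of the 3 with at least 100 counts, Pacsin1 was higher under the TCR1640 label (2.24 in males, 1.89 in females), Tcf4 was lower (-1.46 and -0.78) and Ccr9 was not apart. All 10 T cell genes were detected, and they summed to 2109 and 1990 CPM under the TCR1640 label, against 1691 and 1598 CPM under the SJL/J label. Cd8a had 1699 and 1214 counts in males and females labelled TCR1640, against 217 and 193 in those labelled SJL/J. Cd4 stood the other way, with 1692 and 1244 counts under the TCR1640 label, against 1870 and 1961 under the SJL/J label, log2 ratios of -0.51 in males and -0.58 in females. Summed B cell genes stood at 51.9 and 49.0 CPM under the TCR1640 label, against 38.8 and 33.2 CPM under the SJL/J label. NK cell genes stood at 21.6 and 32.0 CPM under the TCR1640 label, against 14.1 and 12.7 CPM under the SJL/J label. Of these 6 NK cell genes, Ncr1, Klrb1c and Klra8 were at 0 in at least 1 group, and only 1 had at least 100 counts. Summed monocyte and macrophage genes stood at 140.1 and 138.8 CPM under the TCR1640 label, against 131.3 and 132.8 CPM under the SJL/J label. Most of these counts were of Csf1r, while Lyz2 had 2 and 3 counts under the TCR1640 label, against 61 and 38 under the SJL/J label. The part of these cells in the strain ratios of the stimulated genes was not tested.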

How the data were processed

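The authors deposited whole-number read counts per Ensembl gene for 8 columns, not normalized. Per the submitters' processing notes, bcl2fastq 2.17, Bowtie2 and HTSeq were used with the mm10 build. Per the labels' protocols, stranded mRNA libraries were made from 500 ng of RNA. Which strand setting and which annotation were used in counting is not given in the sources read. Symbols and positions came from GENCODE M21 on GRCm38, and 147 identifiers were not in it.

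Columns of a group agreed to about sampling noise and were summed. Column totals were 3765291 to 5116467 counts. Summed samples were scaled with TMM in edgeR 4.0.16 (R 4.3.3). Ratios have exact 95% conditional intervals on counts. Differences of 2 log2 ratios have normal-approximation intervals. Genes needed 100 counts over the 8 columns. The additive model used edgeR's quasi-likelihood test with Benjamini-Hochberg adjustment over 14124 genes. DESeq2 1.42.0 was an alternative. The computations were tested on simulated data.

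The 40 genes, the other lists and the tests were chosen with earlier results of these data known. All 40 genes were to be accounted for by role, with column values for those apart and for Irf7, Irf9 and Isg15, and at most 4 genes named per pathway list by size, besides a few always given. Some results are not reported here.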

Additional observations from a re-analysis of the deposited data

Results flagged for a closer look

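In 3 of the 26 genes the male over female ratio differed between the strain labels by more than 1.5-fold, with a counting interval that excluded equality. All 3 differences were downward, TCR1640 minus SJL/J, and 5.69% of all genes met that limit downward. The differences were not tested between mice, since each group is 1 sample. For Usp18 the log2 ratio was -0.66 under the TCR1640 label and 0.29 under the SJL/J label, a difference of -0.953 (-1.54 to -0.37). An edgeR fit of the 8 columns, whose spread is that between columns of 1 group, gave an adjusted p of 0.021 for it. For Ifih1 the ratios were -0.63 and 0.78, a difference of -1.412 (-2.34 to -0.49, adjusted p = 0.0456 in the same edgeR fit). Without column 1 of the TCR1640 females the Ifih1 difference was -0.71 (-1.87 to 0.45). For Samd9l the ratios were -0.53 and 0.11, a difference of -0.63 (-1.22 to -0.04, adjusted p = 0.207 in that edgeR fit). Its interval held 0 without TCR1640 male column 1 (-0.34), TCR1640 female column 1 (-0.47), SJL/J male column 1 (-0.44) or SJL/J female column 1 (-0.64) or 2 (-0.57). DESeq2 on the same 8 columns called none of the 26 differences in either direction. The edgeR fit of 8 columns also called Parp9, upward, at 0.31 (adjusted p = 0.000554).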

How the results depend on the processing

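No ratio called in the comparisons changed its sign under any alternative. With 1 column, or all 4 columns of 1 number, left out, males had 5 to 9 of the 26 genes higher and 2 lower between the strain labels, and females 11 to 13 higher and 1 to 2 lower. Males over females gave 3 to 5 lower and 0 higher under the TCR1640 label, and 0 to 2 higher and 0 to 1 lower under the SJL/J label. The difference of the sex ratios gave 0 to 5 lower and 0 higher, with 0 when all columns of number 1 were left out. The additive fit gave 9 to 12 higher and 1 to 3 lower for strain, and 0 for sex. The count of TCR1640 males lower than females was 5 without TCR1640 female column 2, and the count of lower differences was 5 without TCR1640 male column 2. Without either column of the SJL/J females, or without SJL/J male column 1, the counts of 1 under the SJL/J label moved by 1. Library totals in place of TMM, and TMM from genes with no overlap, each gave 0 lower in SJL/J males, and the second gave 1 lower between females. A minimum of 40 counts gave 6 lower in TCR1640 males and 5 lower differences. With no count minimum these were 6 and 5, with 5 lower between the strain labels in males and 2 higher in SJL/J males. At 2-fold the counts were 0 higher between males, 4 higher and 1 lower between females, 0 lower in TCR1640 males, 0 and 0 in SJL/J males and 1 lower difference; fewer genes pass by construction. Without genes that overlap another strand's gene, 1 was lower in TCR1640 males. DESeq2 on the 4 summed samples called 5 higher and 0 lower for strain, against 12 and 2 by edgeR. Its share of all genes was not computed, and the cause was not tested. Counts of 40 or fewer limit the smaller members, whose intervals span more than 1.5-fold.

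Fits of the 8 columns take the spread between columns of 1 group as error. By edgeR, 4 genes were lower between males (22.5% of all genes), 8 lower in TCR1640 males (9.46%), 0 higher in SJL/J males (5.12%), and 1 difference was higher (6.68%); for sex, 1 was higher (8.4%) and 5 lower (11%). By DESeq2, 1 was lower between females (10.6%), 0 lower in TCR1640 males (4.03%), 0 higher in SJL/J males (1.1%), 0 differences were lower (1.94%), and 2 were lower for sex (4.83%). With the replicate number as a block, edgeR called 4 lower between males (22.8% of all genes), and 1 higher (9.15%) and 8 lower (9.86%) in TCR1640 males. It called 0 higher in SJL/J males (5.49%), 1 higher difference (7.13%), and 1 higher (8.89%) and 5 lower (11.5%) for sex. Columns of the same number did not deviate together (r of -0.019 to 0.031 between groups). Differences between columns of a group were close to sampling noise, so this cannot show whether such columns share more than a number.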
